A study of Marchantia polymorpha subsp. ruderalis with 24 samples.

Results

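The 149 genes described here are the transcripts of Marchantia polymorpha thallus whose level was highest at 36 h and again at 60 h of constant light, that is, at a pair of times 24 h apart. They are 149 of 20574 genes in the count table, and 1.40% of the 10678 genes with a mean of 5 or more counts per 1000000 counts of the library (CPM). To be a member, a gene had to reach that mean and to have its highest time mean at 36 h among 24, 30, 36 and 42 h and at 60 h among 48, 54, 60 and 66 h. Its highest time mean had to be at least 1.5 times the lowest on each of these days, with the lowest replicate of the peak time above the highest replicate of the trough time. The rule left out 5 genes by identifier and all genes of the male V chromosome. Of the 5, Mp2g01940, Mp6g15550 and Mp3g15330 met every other demand, Mp2g16350 and Mp7g05770 did not, and no V gene did. Peaks, troughs and their ratios chose the members, so they are given as a description with no test. In other words, membership was selected on CPM within each day, and only differences between the days were left for tests. Those tests are not fully free of the selection either, as set out with the contrast of the days.

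All libraries came from wild-type Tak-1 plants (Takaragaike-1, a male accession of this liverwort kept in laboratories). Per the labels' protocols, gemmae, the clonal propagules of the thallus, grew on agar medium at 20 °C, with white light of 50 to 60 µmol of photons each second per square metre for 12 h and darkness for 12 h of each cycle, before they went into constant light. Libraries were then made at 24, 30, 36 and 42 h, called the first day here, and at 48, 54, 60 and 66 h, the second day, with 3 replicates at each time and 24 in all. The labels name the tissue as young thallus, the extraction protocol speaks of gemmae, and nothing says at which hour of the cycle plants were moved or whether replicates were separate cultures. The p-values below therefore weigh differences against the spread of these samples alone, and that spread may be technical. The totals ran from 14929708 to 59194999 counts per library. Libraries of 1 time differed by more than counting noise (chi-square per degree of freedom 12.3 to 168). Replicate 3 of 24, 30 and 66 h stood apart by the gene MpVg01240, which took 4.27% to 7.22% of their counts and at most 2.39% elsewhere, so the counts of calls below are also given without these 3. Of the chloroplast genes with a symbol, MpRBCS lay at 129 to 333 CPM, MpGUN4 at 136 to 235 and MpCHLD at 129.9 to 234 over the libraries. The sperm protamine gene MpPRM was at 0 to 0.144 CPM, while MpRKD, listed with the sexual organs but also known from vegetative tissue, was at 151 to 205.

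As background, the circadian clock of plants is a network of transcription factors that repress one another in turn, and it keeps a daily rhythm going when light and temperature stay constant. Its output reaches metabolism and growth: in flowering plants, genes of wall loosening, of phenolic compounds and of redox protection are among those it times to particular hours. Plant walls are loosened and rebuilt by expansins, by hydrolases and transglycosylases of xyloglucan and by esterases of pectin, while phenolic compounds are made from phenylalanine and coupled by oxidases and peroxidases.

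The typical member started low, peaked, dipped less deeply and peaked again. With each gene set to its own mean over all libraries as 1, the median member stood at 0.531 at 24 h and 0.847 at 30 h, reached 1.24 at 36 h, then stood at 0.953 at 42 h and 0.797 at 48 h. It stood at 0.971 at 54 h, reached 1.41 at 60 h and ended at 1.18 at 66 h. The 24 h mean was the lowest of all 8 times in 134 of the 149 genes. The 60 h mean was the highest of all 8 in 109 and the 36 h mean in 40. A lower level in bulk tissue may mean fewer cells of a type or less RNA per cell, which cannot be told apart.

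**Figure D1:**
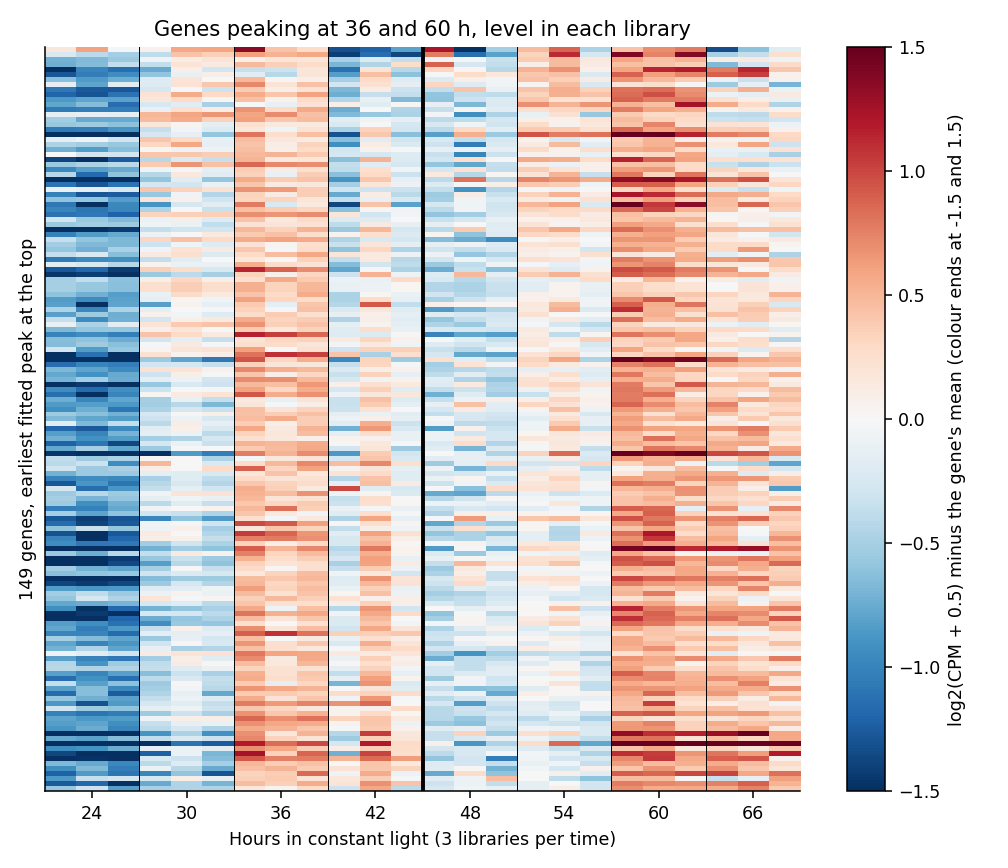
Level of the 149 genes in each of the 24 libraries, as log2(CPM + 0.5) minus the gene's mean over the libraries, in red above and in blue below that mean. Columns are libraries in order of time with 3 per time, the thick line parts the days, and rows are genes in order of the fitted peak. The columns of 36 and 60 h are red throughout most of the rows, and those of 24 h are the deepest blue.

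Summed over the members, the share of all counts was 0.764%, 0.748% and 0.732% in the libraries of 24 h, 1.22%, 1.35% and 1.23% at 30 h, 2.04%, 1.81% and 1.90% at 36 h and 1.25%, 1.76% and 1.39% at 42 h. On the second day it was 1.13%, 1.25% and 1.14% at 48 h, 1.51%, 1.52% and 1.31% at 54 h, 2.28%, 2.24% and 2.02% at 60 h and 1.91%, 1.94% and 1.64% at 66 h. All libraries of 48 h thus lay above all those of 24 h, and 2 of the 3 at 60 h above all those of 36 h. Replicate 2 of 42 h stood out as the highest of its time.

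**Figure D2:**
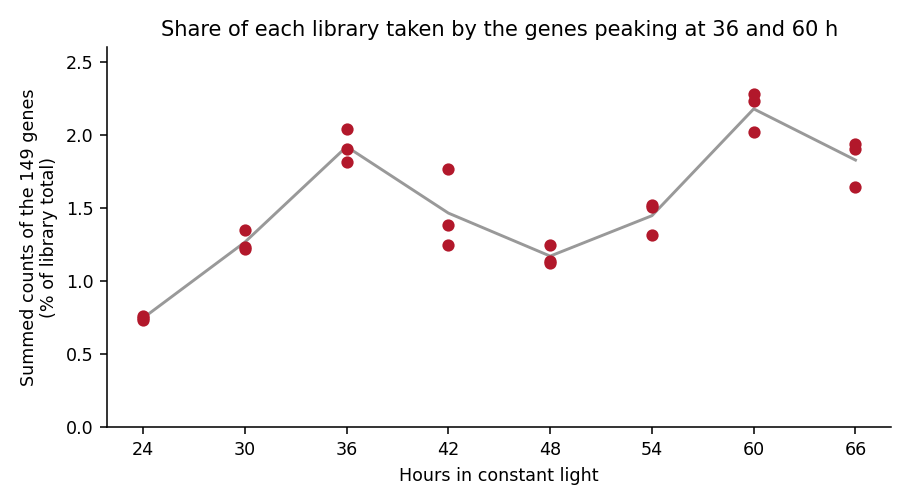
Summed counts of the 149 genes as a percentage of the library total, against hours in constant light; points are libraries and the line joins the means of 3. The sum was 2.02% to 2.28% at 60 h and 1.13% to 1.25% at 48 h, and 1.81% to 2.04% at 36 h and 0.732% to 0.764% at 24 h.

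The lowest time mean of the first day was at 24 h in 142 members and at 42 h in 7. That of the second day was at 48 h in 141, at 66 h in 6 and at 54 h in 2, and 136 members had both troughs 12 h before their peaks. On the second day the 60 h mean was a median 1.73 times the trough, from 1.501 to 5.45 times, and on the first day the 36 h mean was a median 2.35 times the trough, from 1.52 to 22.1 times. A ratio of 2 or more was reached by 42 members on the second day, by 104 on the first and by 39 on both. The ratio was larger on the second day in 17 members and larger on the first in 132. Close to the lower limit of 1.5, judged by the smaller of the day ratios, were MpIDA4 (1.501), Mp4g06280 (1.503) and Mp1g14820 (1.503) inside it and Mp6g02760 (1.4998), Mp6g17450 (1.499) and Mp3g16590 (1.498) outside. In all, 366 further genes had the same peak times and separated replicates with a smaller ratio.

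**Figure D3:**
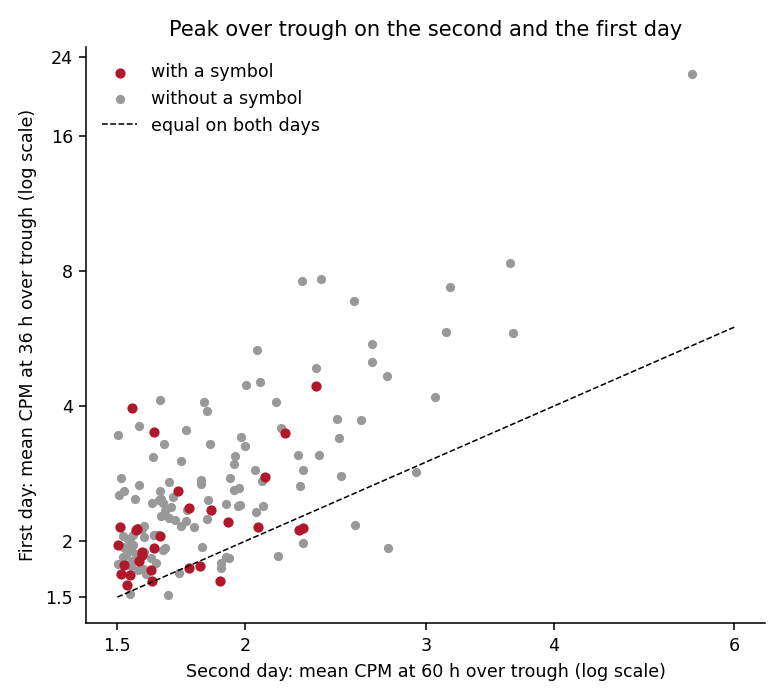
Ratio of the peak time mean to the trough time mean for each of the 149 genes, on the second day (60 h, horizontal, log scale) and the first day (36 h, vertical, log scale); red points have a gene symbol. Above the dashed line lie the 132 genes with the larger ratio on the first day.

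The members were not all alike in shape. A cosine of 24 h with a linear drift, fitted in edgeR, put their peaks at a median of 12.0 h (hours in constant light, modulo 24 h), with the quartiles at 10.9 and 12.9 h and the extremes at 7.71 and 14.1 h. Of the times beside the peak, which the rule does not compare with each other, 66 h was above 54 h in 117 members and 42 h above 30 h in 97. A group of 86 members leaned to the later side on both days, with fitted peaks from 10.5 to 14.1 h, 21 leaned to the earlier side on both, from 7.71 to 11.3 h, and 42 changed sides. MpGDPD (9.69 h) and MpOMT8 (9.50 h) were among the earliest genes with a symbol and MpCache3 (13.3 h) and MpLAR-like4 (13.3 h) among the latest. A fall by 42 and 66 h to below the start of the day was rare. Only Mp4g20740 and Mp3g18190 had both troughs there, and they were singled out after their values were seen. Mp4g20740 stood at 78.3, 72.9 and 76.6 CPM at 36 h and 18.9, 22.8 and 19.4 at 42 h, then at 134, 85.3 and 133 at 60 h and 36.2, 39.5 and 60.0 at 66 h. Its libraries of 48 h ranged widely, with 87.1, 22.9 and 28.9 CPM, and those of Mp3g18190 at 48 h did so too, with 73.8, 7.16 and 21.8 CPM.

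A RefSeq symbol was found for 30 members, or 20.1%, against 19.2% of all genes with a mean of 5 CPM or more. Symbols were joined through the digits of the identifier across annotation versions and would be wrong for any gene that was renumbered. Below, counts over a group are of its genes with a mean of 5 CPM or more, the level the rule asks for. Counts of members in a group stand against the 1.40% of all such genes that were members. No member belonged to the core clock (0 of 8), to light signalling (0 of 12) or to the photoreceptors (0 of 4). The same held for membrane transport (0 of 163), core histones (0 of 25), the cell cycle (0 of 26), pentatricopeptide repeat proteins (0 of 69) and autophagy and peroxins (0 of 37). At that share, lists of these sizes would hold few members or none, so the zeros carry no weight of their own. Further lists without a member are not named here. By the same rule with other hours, 10 membrane transport genes peaked at 24 and 48 h, a set of 185 of the 10678 genes at that mean. Among the members with a symbol, 8 belonged to carbohydrate-active enzyme families, expansins and EXORDIUM-LIKE genes, 9 to phenolic synthesis and oxidation, 4 to redox and detoxification and 3 to lipid and oxylipin metabolism. The remaining 6 are regulators and genes of other kinds. These groups were drawn up after the symbols of the members were seen, so their sizes carry no weight of their own. In a contrast of the days that the rule does not use (mean of 48 to 66 h minus mean of 24 to 42 h, edgeR quasi-likelihood test, Benjamini-Hochberg adjusted p under 0.05), 18.3% of all 14414 genes tested were called higher on the second day and 16.3% lower. Of the 8 core clock genes, 4 were higher and 0 lower. Counts of that contrast stand beside each group below, and the rule can favour genes that rise between the days, as set out with the contrast itself. Of all 149 members, 104, or 69.8%, were called higher and 6 lower. The lists were not chosen by the rule, so counts of the groups are to be read against this share too. Roles named below are known from flowering plants unless said otherwise.

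The wall and glycan genes were 8 of 172, where 1.40% of all genes at that mean were members, and by the same rule 3 genes of that list peaked at 24 and 48 h, 2 at 42 and 66 h and 0 at 30 and 54 h. In the contrast of the days, 5 of these 8 were higher on the second day and 1 lower, where of the 248 tested on the whole list 34 were higher and 57 lower. Of the 5 calls, those of MpEXL3, MpGH16.42 and MpGT37.8 depended on single libraries, as given with the contrast. MpEXL3 (Mp7g19240), of the EXORDIUM-LIKE family of apoplast proteins tied to cell expansion in Arabidopsis, had the largest ratios over both days of the genes with a symbol, with 19.0, 16.3 and 17.6 CPM at 24 h, 86.3, 82.1 and 66.4 CPM at 36 h, 24.9, 31.5 and 29.2 CPM at 48 h and 68.3, 79.8 and 52.6 CPM at 60 h. All its libraries of 36 and 60 h lay above all those of 24 and 48 h, with a peak 2.34 times the trough on the second day and 4.43 times on the first. MpGH35.2 (Mp2g15660), of the beta-galactosidase family, had 11.5, 11.4 and 14.5 CPM at 24 h, 46.5, 39.05 and 45.1 CPM at 36 h, 23.7, 34.6 and 29.0 CPM at 48 h and 72.9, 61.03 and 57.2 CPM at 60 h. Its libraries of 48 h overlapped none of those of 24 h, and those of 60 h none of those of 36 h. MpGH38.1 (Mp4g13950), of the alpha-mannosidase family that trims glycans of proteins, had 57.3, 54.9 and 57.5 CPM at 24 h, 210.5, 185 and 197 CPM at 36 h, 119.7, 182 and 137 CPM at 48 h and 256, 235 and 224 CPM at 60 h, again with no overlap between the libraries of 48 and 24 h.

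MpGH16.42 (Mp8g18980) belongs to the family of xyloglucan endotransglucosylases and hydrolases, of which 2 of 19 were members. It took the most counts of all members, with 634, 577 and 677 CPM at 24 h, 1253, 929 and 1143 CPM at 36 h, 769.7, 731 and 810.4 CPM at 48 h and 1533, 1414 and 1230.4 CPM at 60 h. Its replicates at 42 h spread from 622 to 1176 CPM, a span that took in every library of 30 h. MpGH16.8 (Mp2g17820), of the same family, had 56.6, 46.7 and 46.6 CPM at 24 h, 79.4, 80.4 and 74.5 CPM at 36 h, 44.7, 28.5 and 44.9 CPM at 48 h and 67.9, 70.1 and 85.0 CPM at 60 h, so its libraries of 60 and 36 h overlapped and every library of 48 h lay below every one of 24 h. MpCE8.5 (Mp2g19430), of the pectin methylesterase family, had 375, 401 and 400.0 CPM at 24 h, 781, 678 and 761 CPM at 36 h, 513, 505 and 487 CPM at 48 h and 801, 824 and 761 CPM at 60 h. MpExpansin16 (Mp3g03970), of the proteins that loosen walls without cutting them, was the only member among 15 expansins, at 58.2 ± 9.4 CPM at 60 h and 36.9 ± 6.8 at 48 h, and 64.8 ± 6.4 at 36 h and 35.8 ± 5.1 at 24 h (SD, n = 3 each). MpGT37.8 (Mp2g22100), of the fucosyltransferase family of wall polysaccharides, stood at 14.5 ± 2.2 CPM (SD, n = 3) at 60 h and 12.7 ± 1.4 at 36 h.

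**Figure D4:**
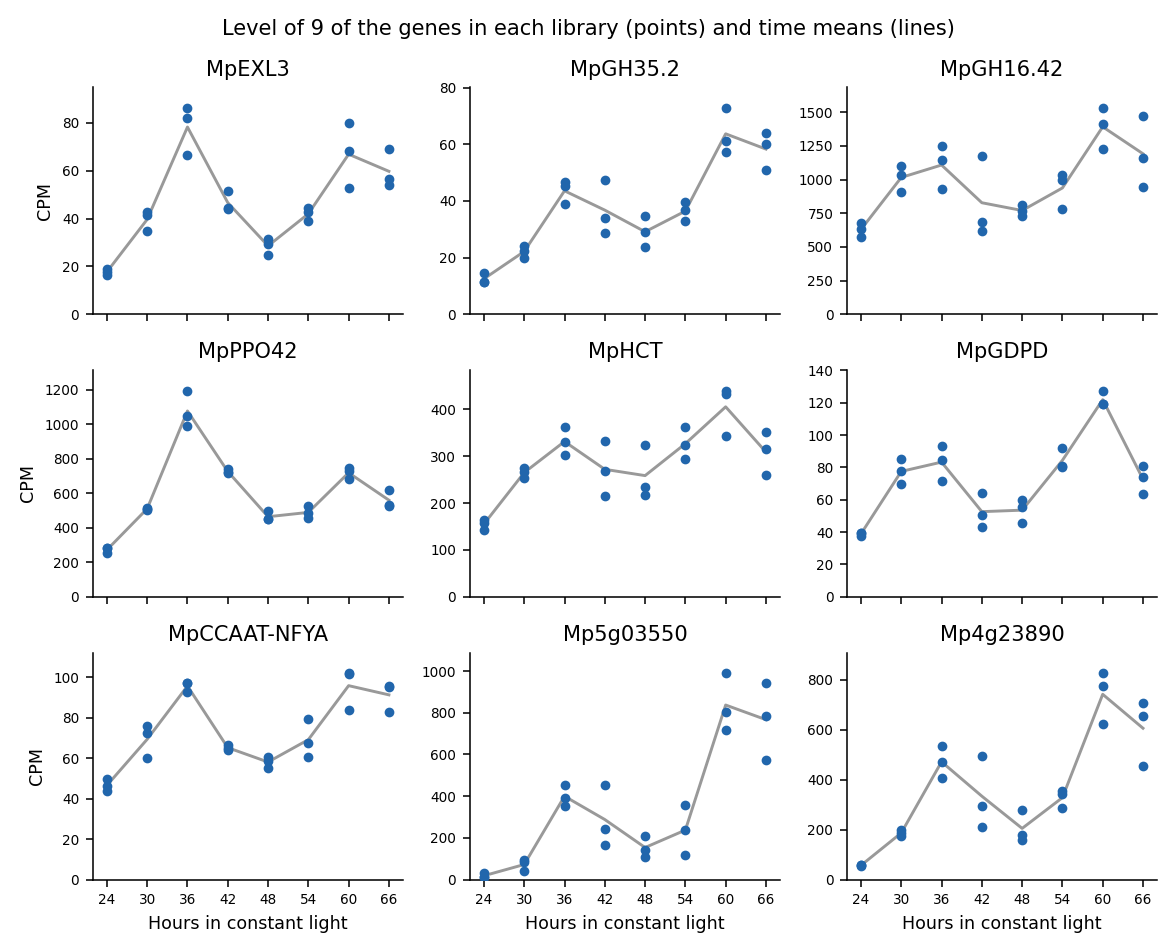
CPM of 9 of the genes against hours in constant light; points are libraries, lines join time means, and each vertical axis starts at 0. All 9 have their highest mean of each day at 36 and 60 h, and MpPPO42 averaged 719 CPM at 60 h and 1078 CPM at 36 h.

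The phenolic genes were 9 of 181 listed, where 1.40% of all genes at that mean were members. Of the list, 9 others peaked at 24 and 48 h, 1 at 30 and 54 h and 1 at 42 and 66 h. Between the days 4 of the 9 members were higher on the second and 0 lower (edgeR), where of the 289 tested on the list 40 were higher and 75 lower. MpPPO42 (Mp5g19980), a polyphenol oxidase gene whose family oxidises phenols to quinones, had 282, 282 and 253 CPM at 24 h, 1048, 1196 and 989 CPM at 36 h, 449, 449 and 495 CPM at 48 h and 683, 748 and 727 CPM at 60 h. Each peak stood clear of every other time of its day, and every library of 60 h lay below every one of 36 h. It was the only member of 23 polyphenol oxidase genes. MpHCT (Mp7g12690), a hydroxycinnamoyl transferase gene of the phenylpropanoid route, had 143, 158 and 165 CPM at 24 h, 362, 303 and 329.8 CPM at 36 h, 235, 324 and 217 CPM at 48 h and 434, 440.4 and 343 CPM at 60 h. MpPKS/CHS5 (Mp2g22690), 1 of 12 genes of the chalcone synthase family, averaged 24.5 ± 1.6 CPM at 60 h and 15.0 ± 3.3 at 48 h, and 22.2 ± 2.4 at 36 h and 11.5 ± 0.27 at 24 h (SD, n = 3 each). MpLAR-like4 (Mp7g05760), named for leucoanthocyanidin reductase of flavonoid synthesis, averaged 132 ± 16 CPM at 60 h and 127 ± 6.3 at 36 h, each above 1.7 times its trough.

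The O-methyltransferase genes MpOMT8 (Mp2g07390) and MpOMT9 (Mp2g09790), whose family can methylate phenolic hydroxyl groups, were 2 of 7. MpOMT8 stood at 39.8 CPM at 60 h and 49.3 at 36 h, and its mean at 54 h was 38.6 CPM. MpOMT9 stood at 21.1 CPM at 60 h and 27.7 at 36 h. Both had the lower mean at 60 h. Of 65 class III peroxidase genes, whose products act on phenols in the wall, MpPOD23 (Mp3g06650, 55.97 CPM at 60 h and 52.2 at 36 h) and MpPOD82 (Mp5g07230, 6.45 CPM at 60 h and 7.60 at 36 h) were members. MpUGT24 (Mp5g20210), 1 of 27 genes of the family that adds sugars to small molecules, had 28.8 CPM at 60 h and 26.4 at 36 h.

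The redox genes were 4 of 64, where 1.40% of all genes at that mean were members. No gene of that list peaked at any of the other times by the same rule. Those sets held 185, 49 and 71 of 10678 genes, so a list of 64 would hold few of them or none. Between the days 3 of the 4 members were higher on the second and 0 lower (edgeR), and of the 77 tested on the list 19 were higher and 14 lower. MpDHAR3 (Mp3g08510), a dehydroascorbate reductase gene that returns ascorbate to its reduced form, had 10.5, 11.5 and 10.5 CPM at 24 h, 22.4, 21.5 and 24.9 CPM at 36 h, 9.01, 8.77 and 11.6 CPM at 48 h and 20.4, 20.9 and 25.1 CPM at 60 h, with libraries of 48 and 24 h that overlapped. MpPTOXa (Mp3g12150), the plastid terminal oxidase that passes electrons from plastoquinol to oxygen, averaged 33.3 ± 4.5 CPM at 60 h and 16.2 ± 1.9 at 48 h, and 29.0 ± 2.5 at 36 h and 13.5 ± 2.9 at 24 h. MpCuAO1 (Mp1g26990), a copper amine oxidase gene of polyamine breakdown, had 112 ± 3.3 CPM at 60 h and 97.1 ± 6.0 at 36 h. MpGST12 (Mp4g23710), 1 of 28 glutathione S-transferase genes, had 254 ± 7.8 CPM at 60 h and 225 ± 22 at 36 h.

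The lipid genes were 3 of 31, where 1.40% of all genes at that mean were members. By the same rule 1 gene of that list peaked at 42 and 66 h and 0 at the other times. Between the days 2 of the 3 members were higher on the second and 0 lower (edgeR), and of the 38 tested on the list 6 were higher and 8 lower. The call of MpLACS depended on single libraries, as given with the contrast. MpGDPD (Mp4g01320), a glycerophosphodiester phosphodiesterase gene that frees glycerol phosphate from lipid remains, leaned to the early side, with 37.7, 39.6 and 39.5 CPM at 24 h, 93.5, 71.9 and 84.5 CPM at 36 h, 45.4, 55.4 and 60.0 CPM at 48 h and 128, 119 and 119 CPM at 60 h. At 30 h it stood at 77.5, 85.2 and 70.0 CPM, overlapping its values of 36 h. MpCYP74N1 (Mp3g21350), of the cytochrome family that turns fatty acid hydroperoxides into oxylipins, leaned late, with 68.3 CPM at 36 h and 49.3 at 42 h, and 67.1 at 60 h and 62.6 at 66 h. MpLACS (Mp7g01380), a long-chain acyl-CoA synthetase gene, had 189 CPM at 60 h and 169 at 36 h.

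The sole transcription factor gene with a symbol among the members, of 311, was MpCCAAT-NFYA (Mp1g13740), for subunit A of the nuclear factor Y complex that binds CCAAT boxes. It had 49.6, 46.3 and 43.7 CPM at 24 h, 97.3, 92.7 and 97.0 CPM at 36 h, 55.3, 60.4 and 58.6 CPM at 48 h and 102, 84.0 and 102 CPM at 60 h, with replicates close together at each of these times. MpRLK-Pelle_URK-Pp-1c (Mp3g15740) was the sole receptor-like kinase gene, of 59, with 48.0 CPM at 60 h and 58.2 at 36 h. MpIDA4 (Mp7g10970) is named for the small secreted peptides that act in organ shedding of Arabidopsis and had 8.14 CPM at 60 h and 9.24 at 36 h. MpATXR4 (Mp5g08180), named for a family of histone methyltransferases, had 35.3 CPM at 60 h and 34.1 at 36 h. MpGID1L8 (Mp5g03560), of a carboxylesterase family named for the gibberellin receptor of flowering plants, had 98.9 CPM at 60 h and 81.6 at 36 h. MpCache3 (Mp7g00590) had 19.6 CPM at 60 h and 17.2 at 36 h.

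The 119 members without a symbol, for which no role can be given, had a median mean of 40.1 CPM, from 5.35 to 572. Their peak was a median 1.75 times the trough on the second day and 2.43 times on the first, against 1.63 and 2.09 times in the members with a symbol. The 5 largest ratios over both days were among them. Mp5g03550 had 13.0, 31.4 and 9.95 CPM at 24 h, 453, 353 and 393 CPM at 36 h, 209, 108 and 143 CPM at 48 h and 990.0, 803 and 719 CPM at 60 h, which made its 60 h mean 5.45 times the 48 h mean and its 36 h mean 22.1 times the 24 h mean. Its libraries of 66 h, with 786, 941 and 574 CPM, overlapped those of 60 h. Mp4g23890 had 52.8, 58.4 and 57.95 CPM at 24 h, 536, 408 and 469 CPM at 36 h, 158, 279 and 177 CPM at 48 h and 776, 826 and 622 CPM at 60 h. Mp1g03750 had 19.1, 16.4 and 17.0 CPM at 24 h, 157, 108 and 123 CPM at 36 h, 50.9, 130.3 and 61.3 CPM at 48 h and 274, 295 and 199.5 CPM at 60 h, with replicate 2 of 48 h well above the other two of its time. Mp5g20590 had 9.92, 6.92 and 6.37 CPM at 24 h, 48.2, 40.4 and 46.4 CPM at 36 h, 28.1, 25.7 and 20.4 CPM at 48 h and 104, 75.3 and 91.7 CPM at 60 h. Mp2g02200 had 1.74, 1.49 and 1.53 CPM at 24 h, 11.7, 7.43 and 8.77 CPM at 36 h, 6.99, 5.14 and 4.36 CPM at 48 h and 19.1, 15.95 and 16.7 CPM at 60 h. In each of these 5 genes all libraries of 60 h lay above all those of 36 h, and all of 48 h above all of 24 h. Of the members with the most counts, Mp6g04110 had 164, 178 and 129.5 CPM at 24 h, 930.5, 829 and 834 CPM at 36 h, 325, 402 and 239.6 CPM at 48 h and 812, 1028 and 730.1 CPM at 60 h, with overlapping libraries of 60 and 36 h. Mp7g06780 had 212, 217 and 197 CPM at 24 h, 742, 726 and 749 CPM at 36 h, 303, 319.9 and 389 CPM at 48 h and 624, 581 and 566 CPM at 60 h, with every library of 60 h below every one of 36 h.

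Among the members, 12 genes lay in 6 pairs of neighbouring identifiers. How many such pairs genes placed at random would form was not worked out. The reads of a pair may be shared, since neither the program that counted them nor its use of strand is known here. Mp8g13720 and Mp8g13730 had identical counts in all libraries and count as 1 measurement, which leaves 148 members with that pair counted once. Mp2g01490 and Mp2g01500, at a mean of 72.0 and 75.7 CPM, had peaks of 1.506 and 1.52 times the trough on the second day and 2.53 and 2.59 times on the first. Mp8g12190 and Mp8g12200 had peaks of 2.66 and 2.34 times the trough on the second day and 5.03 and 4.87 times on the first. With the mean of each time taken out, log2 levels over the libraries correlated at 0.986 in the pair of Mp2g01490 and at 0.857 in that of Mp8g12190. Whether these pairs share reads was not tested. The other pairs were Mp2g17290 with Mp2g17300 (0.171), Mp4g23700 with MpGST12 (0.291), and Mp5g03550 with MpGID1L8 (0.110). The last of these pairs differed widely, with ratios of 22.1 and 1.69 on the first day. By identifier, 32 members lay on chromosome 2, or 2.25% of its genes with a mean of 5 CPM or more. The other autosomes held 13 to 20 members each, from 0.999% of such genes on chromosome 1 to 1.53% on chromosome 7.

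Whether the level of the members changed between the days was tested with contrasts of times 24 h apart. The rule does not compare these times with each other, but it used their levels within each day. Most members were higher on the second day. Of 149 members tested, 104 were higher on the second day and 6 lower (edgeR, mean of the second day minus mean of the first), where 18.3% of all genes tested were called higher and 16.3% lower. The median log2 change of the members was 0.31, with quartiles of 0.16 and 0.55, against 0.013 over all genes tested. Without the 3 libraries rich in MpVg01240, 100 were higher and 7 lower, where 16.3% and 14.8% of all genes were. The rule is not fully blind to such a rise: the troughs mostly come before the peaks within a day, so a gene that also climbs with time reaches the ratio of 1.5 more easily. The same limit holds for the contrasts of 48 h with 24 h and of 60 h with 36 h below. How much of the calls comes from the rule was not tested. Of the 84 members whose 36 h mean was also at least 1.5 times that of the following 48 h, 46, or 54.8%, were called higher and 6 lower, against 69.8% higher of all members. This alternative was chosen after seeing the data. Asking for a high 36 h mean against 48 h also favours genes that are lower on the second day, so part of this fall is built in.

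More changes were called at the troughs than at the peaks. The sets of genes peaking at other hours, given below, also had unequal calls at these pairs of times. At 48 h, 86 members were higher than at 24 h and 4 lower (edgeR, same threshold), where 8.26% of all genes tested were called higher and 7.22% lower. The median log2 change of the members was 0.56 against 0.0025 over all genes. Of the members called, 27 rose at least 2 fold, as did 212 of those called among all 14414 genes tested. In 111 members all libraries of 48 h lay above all those of 24 h, as did 20.5% of all genes tested. Of the 84 members whose 36 h mean was also at least 1.5 times that of 48 h, 44, or 52.4%, were higher at 48 h, against 57.7% of all members. That filter itself favours a low 48 h mean, so part of this fall is built in. Without the 3 libraries rich in MpVg01240, 73 were higher, and without replicate 2 of 48 h 61. The count of 4 lower members became 1 without replicate 2 of 24 h or of 48 h, and 2 without replicate 1 of 24 h, replicate 3 of 42 h or any single library of 30, 36 or 54 h. At the peaks fewer changes were called: 23 members were higher at 60 h than at 36 h and 2 lower (edgeR, same threshold), with 4.83% of all genes called higher and 3.66% lower. The share of members called higher was thus 15.4%. Of the 84 members whose 36 h mean was also at least 1.5 times that of 48 h, 5, or 5.95%, were. The filter favours a high 36 h mean, the base of this contrast, so the lower share is partly built in. It cannot be weighed against the 4.83% of all genes. The median log2 change of the members was 0.24 against -0.0060 over all genes, and 122 of 149 had a positive estimate, against 49.2% of all genes tested. The count of members higher at 60 h rests on single libraries. Of the libraries of 36 h, leaving out replicate 2 gave 0 and replicate 3 gave 5; of those of 60 h, replicate 1 gave 5 and replicate 2 gave 3. Leaving out replicate 2 of 42 h gave 37, with 5.77% of all genes called higher. Without the libraries rich in MpVg01240 the count was 24, with 5.18% of all genes called higher. All libraries of 60 h lay above all those of 36 h in 53 members and in 11.6% of all genes tested. Members higher at 48 h and also at 60 h numbered 20, and 66 were called at 48 h alone. The share of all genes called at both times is not given here, so these counts carry no weight of their own. Whether the change at 48 h and the change at 60 h differed was not tested.

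**Figure D5:**
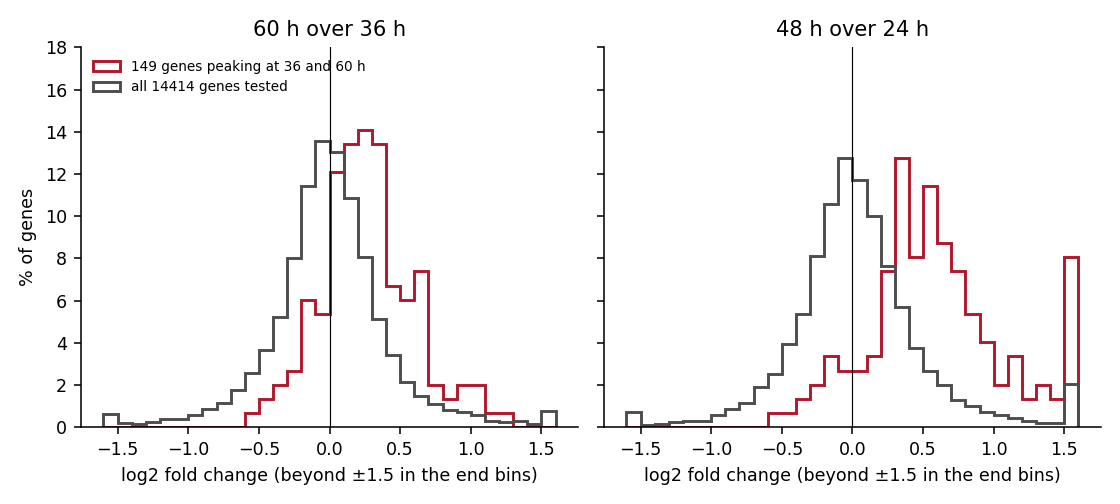
Share of genes by log2 fold change in edgeR, for 60 h over 36 h on the left and 48 h over 24 h on the right, with the 149 genes in red and all 14414 genes tested in grey; changes beyond 1.5 stand in the end bins. The median of the 149 genes was 0.24 on the left and 0.56 on the right, and that of all genes close to 0 on both.

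Single genes showed these changes in different ways. Mp5g03550 rose the most between the days, by 1.84 ± 0.21 (SE) on the log2 scale (edgeR adjusted p = 1.8e-06), and by 3.06 ± 0.45 at 48 h over 24 h (adjusted p = 1.3e-04). Its peak, at 1.12 ± 0.41 for 60 h over 36 h, was not called by edgeR (adjusted p = 0.0916). Mp5g20590 rose between the days by 1.34 ± 0.13 (edgeR adjusted p = 5.5e-07), and its change at 60 h was called (adjusted p = 0.0162) but lost without replicate 2 or 3 of 36 h or replicate 1 of 60 h, with an adjusted p of up to 0.0796. Of the genes with a symbol, the largest rises were those of MpGH35.2 (0.79 ± 0.078, adjusted p = 5.5e-07), MpGH38.1 (0.62 ± 0.070, adjusted p = 1.5e-06), MpGDPD (0.40 ± 0.068, adjusted p = 1.2e-04), MpHCT (0.38 ± 0.085, adjusted p = 0.00150) and MpPOD23 (0.34 ± 0.058, adjusted p = 1.1e-04) in edgeR. These 5 calls held on leaving out each of the 24 libraries in turn. At 48 h over 24 h, MpGH38.1 rose by 1.32 ± 0.14 and MpGH35.2 by 1.16 ± 0.16 (edgeR adjusted p = 9.6e-06 and 7.9e-05). At 60 h over 36 h, MpGH35.2 rose by 0.60 ± 0.15 (edgeR adjusted p = 0.0194), a call lost without replicate 2 or 3 of 36 h or replicate 1 or 2 of 60 h. MpGDPD rose there by 0.61 ± 0.14 (edgeR adjusted p = 0.00965), a call lost without replicate 2 of 36 h. No other gene with a symbol was called higher at 60 h. Of the members without a symbol, 87 were higher on the second day and 4 lower, and of those with one 17 and 2.

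MpPPO42 changed in opposite directions at trough and peak. It rose by 0.72 ± 0.088 at 48 h over 24 h (edgeR adjusted p = 2.6e-05) and fell at the peak, with -0.53 ± 0.088 for 60 h over 36 h (adjusted p = 0.00109), while the mean of the days was not called different (-0.062 ± 0.044, adjusted p = 0.293). With 24 and 48 h kept out of the contrast, it was called lower on the second day, so that result depends on the times included. The calls at 48 and 60 h held on leaving out each library in turn. Mp6g10490 also fell at 60 h (-0.48 ± 0.085, edgeR adjusted p = 0.00176), and no other member was called lower there. MpCCAAT-NFYA rose between the days by 0.20 ± 0.042 (edgeR adjusted p = 8.5e-04), with a change of 0.055 ± 0.084 at the peak (adjusted p = 0.755).

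The members that fell between the days were few. They were Mp1g21210 (-0.40 ± 0.051, edgeR adjusted p = 5.8e-06), Mp5g21870, MpRLK-Pelle_URK-Pp-1c (-0.25 ± 0.054, adjusted p = 0.00117), MpGH16.8 (-0.21 ± 0.066, adjusted p = 0.0171), Mp1g16100 and Mp6g10490, the identifiers without a symbol being named after their values were seen. At 48 h the members lower than at 24 h were Mp1g21210, Mp1g16100, MpGH16.8 and Mp6g09040. The call of MpGH16.8 at 48 h (edgeR adjusted p = 0.0468) did not hold in 16 of the 24 fits without 1 library. Not called between the days were MpDHAR3 (-0.044 ± 0.066, edgeR adjusted p = 0.647), MpExpansin16 (-0.085 ± 0.078, adjusted p = 0.427), MpCE8.5 (0.12 ± 0.069, adjusted p = 0.175), MpOMT8, MpOMT9, MpPOD82, MpIDA4, MpATXR4, MpUGT24 and MpCYP74N1 (adjusted p = 0.0502). MpCYP74N1 lay at the threshold and was called higher with median-of-ratios size factors, with DESeq2 and in 6 of the 24 fits without 1 library, those without replicate 3 of 30 h, 1 of 36 h, 2 of 42 h, 2 of 48 h, 3 of 60 h or 3 of 66 h. MpCE8.5 was called higher without the libraries rich in MpVg01240 and without replicate 3 of 66 h alone. The rises of MpEXL3 (0.23 ± 0.078, edgeR adjusted p = 0.0245) and MpGH16.42 (0.26 ± 0.10, adjusted p = 0.0392) were called, but that of MpGH16.42 did not hold in 17 of the 24 fits without 1 library (adjusted p 0.00210 to 0.0858) and that of MpEXL3 in 3, those without replicate 2 of 48 h, replicate 2 of 60 h or replicate 1 of 66 h. That of MpGT37.8 (0.24 ± 0.090, edgeR adjusted p = 0.0463) did not hold in 16 of those fits, nor with no filter on low counts, with the replicate number as a block or without the libraries rich in MpVg01240. The calls of MpLACS (edgeR adjusted p = 0.0291) and MpPTOXa (adjusted p = 0.0271) did not hold in 8 and 6 of them. With 24 and 48 h kept out of the contrast, the day calls of MpEXL3, MpGH16.42, MpGH16.8, MpLAR-like4, MpPTOXa, MpCache3, MpCuAO1 and MpGT37.8 were lost, while MpPPO42 and MpPOD82 were called lower on the second day.

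By the same rule with other hours, 185 genes peaked at 24 and 48 h, 49 at 30 and 54 h and 71 at 42 and 66 h. Of these, 42, 11 and 55 were higher on the second day and 51, 9 and 0 lower, beside 104 and 6 of the 149 members (edgeR, same contrast and threshold). At 48 h over 24 h, in the same order, 4, 2 and 51 were higher and 54, 12 and 0 lower, beside 86 and 4 members. At 60 h over 36 h, 53, 23 and 9 were higher and 7, 1 and 0 lower, beside 23 and 2 members. Of all genes tested, 8.26% and 7.22% were called higher and lower at 48 h, and 4.83% and 3.66% at 60 h. All 4 sets rest on the same libraries, and their difference was not tested.

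The members also varied together between replicates of 1 time. With the mean of each time taken out of log2(CPM + 0.5), the CPM being TMM-scaled here, the median correlation between pairs of members over the 24 libraries was 0.302. It was -9.0e-05 between pairs of all genes with a mean of 5 CPM or more. For the members it was 0.242 without the libraries of 42 h and 0.301 without the 3 rich in MpVg01240. For the genes peaking at 24 and 48 h it was 0.121, at 30 and 54 h 0.0844 and at 42 and 66 h 0.186. These are descriptions over pairs that share libraries, with no test. Replicate 2 of 42 h lay furthest from its time, above the mean in 130 of 149 members with a median of 0.23 on the log2 scale, while replicate 1 of 42 h was above in 26. At the peaks, replicate 3 of 60 h was above its time mean in 26 members and replicate 1 of 36 h in 124. What set replicates of a time apart was not tested.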

How the data were processed

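Whole-number counts per gene were deposited by the authors, not normalized, in 1 table with a column for each of the 24 libraries. Per the labels' protocols, RNA was extracted with on-column DNase digestion, and 100 ng of it went into stranded libraries of poly(A) RNA. For the aligner, the counting program and the build: not given in the sources used here. Depth was 14929708 to 59194999 counts, which limits the precision of low genes. CPM were computed as counts over column totals times 1000000, and SD are over the 3 replicates of a time. For the correlations of genes between replicates of 1 time, the column totals were also scaled by TMM.

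Symbols came from a RefSeq table of assembly MpTak2_v7.1, matched on the digits of the locus tag for 17641 of 20574 genes and 143 of 149 members. No coordinates were used. No sequences were used, so the promoter motifs planned were not searched.

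Tests were edgeR 4.0.16 quasi-likelihood F-tests in R 4.3.3, with TMM scaling, filterByExpr with a minimum count of 10 (14414 genes) and 1 mean per time. Adjusted p are Benjamini-Hochberg values over all genes tested. Alternatives were other scaling, DESeq2 1.42.0, limma-voom 3.58.1, no filter, the replicate number as a block, and libraries left out. Fits and rule were tested on simulated data. The members and lists were chosen with earlier results of these data known. Named genes were all regulators with a symbol, the 10 with a symbol and a mean of 10 CPM or more with the largest geometric mean of the day ratios, the 5 largest called rises and falls with a symbol, the 5 with the most counts and the 5 with the largest ratios, with others of a list named in its group. Symbol patterns of 5 lists were corrected after their matches were seen.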

Additional observations from a re-analysis of the deposited data

How the results depend on the processing

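The rule gave 39 members with a ratio of 2 or more on each day in place of 1.5, and 84 where the 36 h mean also had to be 1.5 times that of 48 h. Of these 84, 46 (54.8%) were higher on the second day, 44 (52.4%) at 48 h than at 24 h and 5 (5.95%) at 60 h than at 36 h, against 69.8%, 57.7% and 15.4% of the 149. Asking for a high 36 h and a low 48 h mean lowers these shares by itself, so the falls are partly built in. With TMM-scaled CPM it gave 158 members, 138 of them shared. Members lower at 48 h than at 24 h, 4 in all, were 2 with median-of-ratios size factors, 2 without the libraries rich in MpVg01240 and 1 when only these times were fitted. The cause was not tested. The other counts stayed within 1.5 times of the reported ones under DESeq2, limma-voom, no filter on low counts, other scaling and, for the days, without 24 and 48 h (78 higher and 7 lower). Leaving out single libraries gave 125 to 183 members, 94 to 107 higher and 6 to 7 lower on the second day, 61 to 92 higher and 1 to 6 lower at 48 h, and 0 to 37 higher and 2 to 3 lower at 60 h. The share of all genes called changed in these fits as well, as given with the contrasts. With the replicate number as a block, 101 members were higher and 6 lower on the second day, 87 and 4 at 48 h and 28 and 2 at 60 h. The replicate numbers gave no sign of pairing the samples, though this cannot show that the samples were unpaired. The deviations of same-numbered libraries correlated at -0.541 to 0.495, over 0.1 in 31 of 84 pairs, and 7 of 24 libraries correlated best with their own number. For the named genes, 3252 of 3441 values kept their side of the threshold, 154 lost a call and 35 gained one, with no reversal of a call.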
